A study of Rhamphochromis sp. 'chilingali' and Astatotilapia calliptera with 50 samples.

Results

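Among the transposable elements (TEs) and repeats transcribed in embryos of a pair of Lake Malawi cichlids, 33 of the 1609 families in the table of elements were short interspersed elements (SINEs), retroposons, satellites or rolling-circle elements. They were chosen by the class in the third field of each family's name, whatever their values. The class SINE had 12 members, the uncertain class SINE? had 2, Retroposon had 12, Satellite had 6, and the rolling-circle class had 1, a Helitron. Whole wild-type, tank-reared embryos of Astatotilapia calliptera from the Mbaka population (AC, 24 embryos) and of Rhamphochromis sp. 'chilingali' (RC, 26 embryos) were sequenced one by one as polyA-enriched, stranded libraries. Both species had 3 embryos at the stages of 4, 10, 15, 18, 20, 22 and 30 somites (ss), with the exception of 4ss in RC, which had 2. RC had 3 embryos at 26ss, which were set against 3 AC embryos labelled as 27ss and are given below as 26ss, and RC had 3 more at 37ss, a stage without AC embryos. The embryos of a species came from a single egg clutch, so that species and clutch cannot be told apart, and p-values measure the spread between clutch mates. The muscle gene myf5, the notochord gene noto and the neural crest gene foxd3 had reads in all 50 embryos.

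These families spread in different ways. SINEs are short, do not code for protein, are transcribed by RNA polymerase III in the species where this was studied, and are copied by the reverse transcriptase of long interspersed elements (LINEs). SINEs named 5S-Deu-L2 combine a head derived from 5S ribosomal RNA, a conserved Deu core and a tail like that of L2 LINEs, and MIR, first named in mammals, is an old SINE group with a head derived from transfer RNA. Retroposon is a wider label for RNA-copied elements without genes of their own; SVA is the name of a composite element of apes that depends on LINE-1 for its copying, and here such labels are only similarity calls made by the repeat annotation. Satellites are tandem arrays, often at centromeres. Helitrons are DNA transposons that replicate by a rolling circle and are known, chiefly from plants, to capture pieces of genes. Reads assigned to such elements in polyA libraries can come from copies inside gene transcripts; whether a read came from an element's own transcript was not tested.

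Reads on elements ran from 778268 to 1345144 per embryo, beside 17619762 to 27454591 on genes. Per 1000 gene reads, element reads had a median of 41.5 in AC (33.9 to 51.2) and of 50.9 in RC (39.6 to 62.4). In the paper gene reads were uniquely mapped, while the mapping for elements allowed many positions per read, so this ratio joins unlike counts. The 33 families took between 1.43% and 2.0% of the element reads of an embryo, and 41.0% of their reads were on SINEs, 26.8% on satellites, 23.4% on retroposons, 4.63% on SINE? and 4.18% on the Helitron. The single most counted family was the satellite rnd-1_family-8 with 11.7% of these reads, followed by the SINE rnd-6_family-1036 with 9.15%. In AC the share of all members went in the group means from 1.49% of element reads at 4ss to 1.96% at 30ss, and in RC from 1.54% at 4ss to 1.84% at 30ss and 1.99% at 37ss, values described here without a test. The SINE share went from 0.589% ± 0.044 (SD, n = 3) at 4ss to 0.861% ± 0.013 (SD, n = 3) at 30ss in AC. In RC it stood at 0.567% ± 0.059 (SD, n = 2) at 4ss and 0.767% ± 0.026 (SD, n = 3) at 30ss. Over the same stages, element reads per 1000 gene reads were 43.6 and 36.7 in AC and 56.6 and 44.1 in RC, so the denominator of these shares also differed between the stages, and its part was not tested. The summed normalized count of SINEs differed less, with means of 6471 at 4ss and 7051 at 30ss in AC, and 7013 and 7463 in RC.

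**Figure D1:**
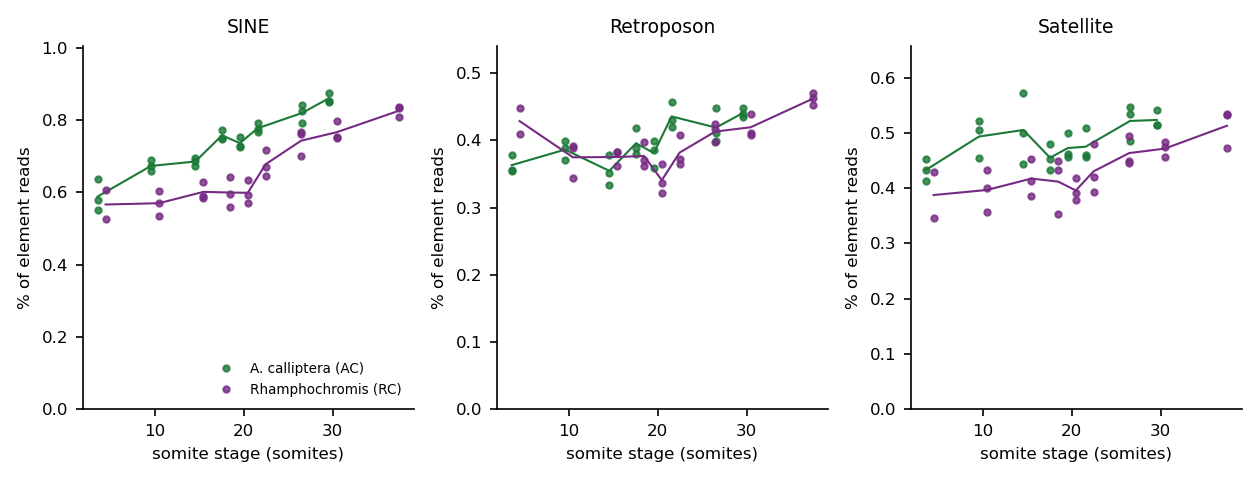
Share of the element reads of each embryo (y axis, %) on SINEs, retroposons and satellites, by somite stage (x axis); points are embryos (AC and RC set apart sideways), lines join group means, AC green and RC purple. The SINE share was 0.589% at 4ss and 0.861% at 30ss in AC, and 0.567% and 0.767% in RC, and the retroposon shares of the species overlapped, with medians of 0.394% and 0.395%.

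Families were compared between the species at each stage on normalized read counts, that is reads divided by a depth factor of the embryo. The deposited factors lay within a relative difference of 0.025 of those for genes, and up to 0.155 from those of elements alone. A family was called where the Benjamini-Hochberg adjusted p of limma, over all 1503 elements tested, was under 0.05 and the difference exceeded 1.5-fold. One member, the retroposon rnd-1_family-432, had 1 read in 1 of 50 embryos and was not tested, which left 32. From the youngest to the oldest shared stage, 4, 2, 4, 3, 2, 1, 3 and 1 of the 32 members were called, each of them higher in RC. Among all elements tested, 18.0%, 18.1%, 17.4%, 15.6%, 15.6%, 12.0%, 12.6% and 14.0% were called at these stages, and without AC replicate 2 the count of members at 26ss was 6. Elements called higher in RC made up 14.3%, 13.8%, 12.0%, 11.5%, 11.6%, 8.18%, 9.45% and 10.4% of those tested, and elements called lower 3.73%, 4.32%, 5.32%, 4.13%, 3.93%, 3.79%, 3.13% and 3.59%. At 1 or more stages 7 members were called (21.9%), against 35.3% of all elements. No member was called lower in RC at any stage by limma, edgeR or DESeq2, against 11.6% of all elements by limma at 1 or more stages. At an unadjusted p under 0.05, 6 members were lower at 1 or more stages by limma, a count that was not made for all elements. On the adjusted p without the fold threshold 4 were lower (background 21.2%). By the order of the embryos alone, 4 members had every RC embryo above every AC embryo at all 8 stages (12.5%, background 6.85%), namely the Helitron, the retroposons rnd-1_family-269 and rnd-1_family-112 and the satellite rnd-3_family-359, and no member had every RC embryo below (background 1.93%).

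**Figure D2:**
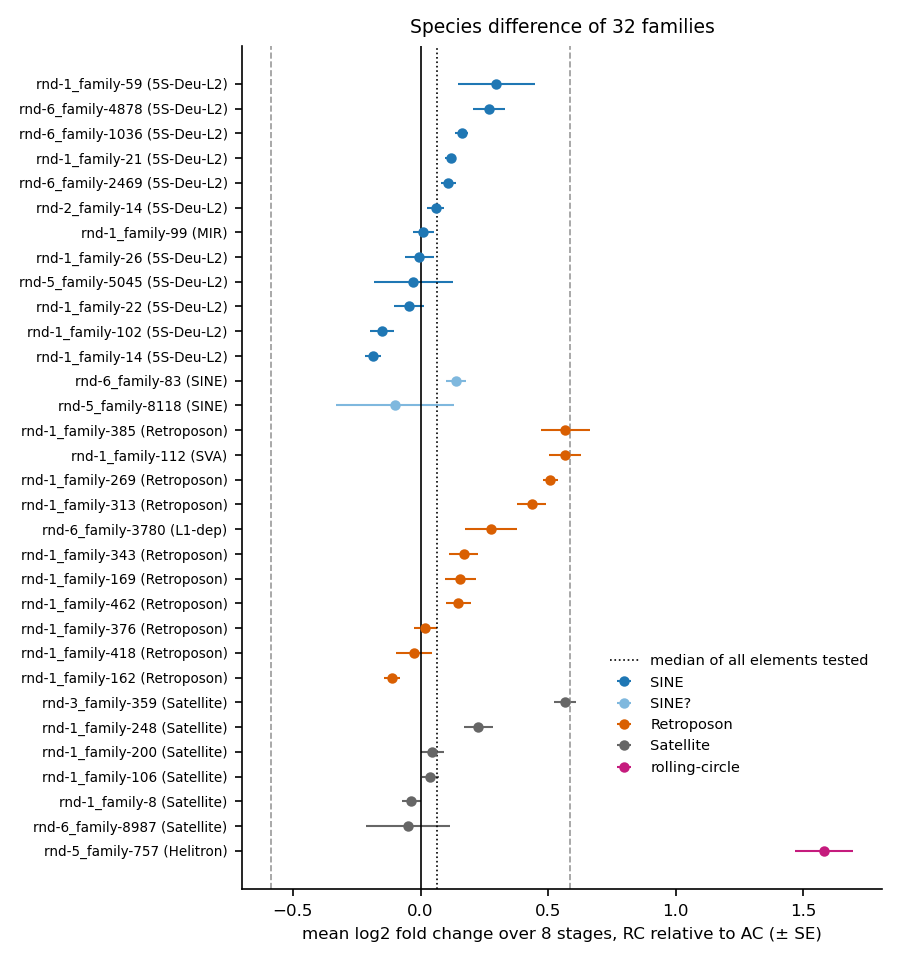
Mean log2 fold change over 8 stages, RC relative to AC (x axis; points are estimates of limma, bars are the standard error), of the 32 families tested, grouped by class. The dotted line is the median of all elements (0.06), dashed lines mark 1.5-fold; the Helitron at 1.58 lies outside them, the other 31 families inside.

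Averaged over the 8 stages, 1 member of 32 was called (background 18.4%). On the adjusted p alone, without the fold threshold, 19 members differed (59.4%, background 61.5%), 16 higher and 3 lower in RC, against 40.1% and 21.4% of all elements. A log2 fold change above 0 at all 8 stages was found in 11 members (34.4%, background 26.1%), and an adjusted p under 0.05 for a higher level in RC at all 8 stages in 3 (9.38%, background 5.32%). The split of higher and lower members rests on the scaling. With depth factors from the element table alone it was 9 higher and 5 lower, and with quantile normalization 8 higher and 11 lower, while the median of all 1503 elements moved from 0.06 to -0.02 and -0.06. Under all 4 scalings tried, 8 members were higher and 3 lower. That count was not made for all elements, so the 8 and 3 of 32 are not shown to differ from the background. No more than 415 of the 1503 elements could be higher under all 4 (the count with quantile normalization). No more than 305 could be lower (the count with depth factors of the gene table). With quantile normalization alone, 415 of the 1503 elements were higher and 575 lower. The 8 were the Helitron, the retroposons rnd-1_family-269, rnd-1_family-112, rnd-1_family-313 and rnd-1_family-385, the satellite rnd-3_family-359 and the SINEs rnd-6_family-1036 and rnd-6_family-4878. The 3 were the SINEs rnd-1_family-14 and rnd-1_family-102 and the retroposon rnd-1_family-162.

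The Helitron family rnd-5_family-757 differed most between the species. Its normalized count had a median of 341 in AC (207 to 508) and of 974 in RC (476 to 2064), from 207 to 2064 over both. At 4ss, AC embryos had 304, 344 and 285, and RC embryos 1156 and 1032. At 20ss, AC embryos had 397, 392 and 356, and RC embryos 979, 2064 and 1635. At 30ss, AC embryos had 462, 454 and 398, and RC embryos 1128, 1063 and 901. All RC embryos lay above all AC embryos of their stage, and 25 of the 26 RC embryos lay above every AC embryo of any stage. The exception was an RC embryo of 18ss with 476, and the highest AC embryo was at 22ss with 508. The mean difference over stages was 1.58 on the log2 scale (SE 0.11, adjusted p 9.927e-15 by limma), or 2.99-fold, and 27 of the 1503 elements tested had a larger one. The stage differences were 1.81, 1.84, 1.96, 1.47, 1.96, 1.2, 1.17 and 1.23 from 4ss to 30ss, each called by limma, and 3.33% of all elements were called higher in RC at all 8 stages. The variation of these values between stages did not pass the test (limma F-test, adjusted p 0.616). Without AC replicate 3, the calls at 22ss (0.90, adjusted p 0.0995 by limma) and 26ss (0.95, adjusted p 0.0839) were lost. Under the scaling alternatives the mean stayed between 1.46 and 1.59.

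RC embryos of the same stage differed strongly in this family. At 18ss they had 969, 476 and 1731, a ratio of 3.63 between the highest and the lowest, and at 10ss 776, 961 and 1919, a ratio of 2.47. In AC the widest ratio was 2.07, at 22ss, where embryos had 407, 508 and 245. The spread within groups was 0.41 on the log2 scale (SD), against a median of 0.22 over all elements tested, and of the 428 elements with a mean count above 500, 17 (3.97%) spread as much. Differences among stages did not pass the test in AC (adjusted p 0.751) or in RC (adjusted p 0.242, limma F-tests). Its share of element reads had medians of 0.0372% in AC and 0.0857% in RC. Reads of both species were mapped to the A. calliptera genome, and reads with several map positions can be shared among families. The number and placing of genomic copies in RC was not measured, and its part in the species difference was not tested. Replicates also differed as whole libraries, with chi-squared per degree of freedom of 35.8 to 44.9 between RC embryos of 10ss and 16.9 to 34.9 at 18ss. It was 48.1 at 4ss in RC, where the ratio in this family was 1.12. The part of such library differences in the spread of this family within groups was not tested.

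**Figure D3:**
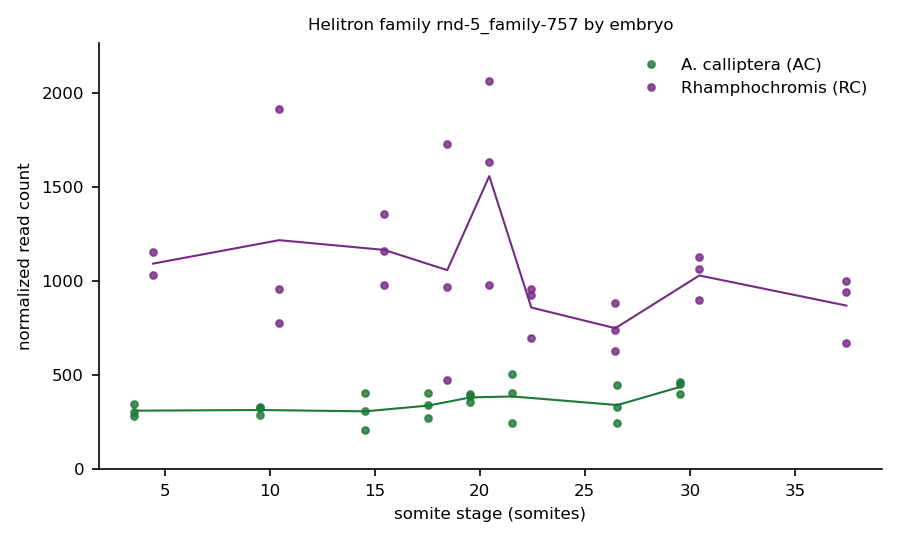
Normalized read count (y axis) of the Helitron family rnd-5_family-757 in each embryo by somite stage (x axis); points are embryos (AC and RC set apart sideways), lines join group means, AC green and RC purple. RC embryos lie between 476 and 2064 and AC embryos between 207 and 508, and the widest spread within a group is at 18ss in RC.

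Retroposons were the class with the most members higher in RC on the adjusted p alone. Of 11 tested, 8 were higher and 1 lower in the mean, beside 40.1% and 21.4% of all elements. With depth factors of the element table alone 4 were higher and 1 lower, beside 454 and 500 of the 1503 elements. With quantile normalization 4 were higher and 3 lower, beside 415 and 575. At 1 or more stages 5 of the 11 were called (background 35.3%). Their median mean difference was 0.17 on the log2 scale, against 0.06 for all elements. It was 0.11 for all LINEs and 0.14 for long terminal repeat (LTR) elements. None of the 11 retroposons was called in the mean (background 18.4%). The most counted of them, rnd-1_family-269, had a median normalized count of 1027 in AC (914 to 1311) and of 1424 in RC (1300 to 1869), and 24 of 26 RC embryos exceeded every AC embryo. At 15ss, AC embryos had 914, 929 and 995, and RC embryos 1538, 1619 and 1419, so the groups did not overlap. Its mean difference was 0.51 on the log2 scale (SE 0.03, adjusted p 3.394e-17 by limma), or 1.42-fold, which is under the fold threshold. The adjusted p was under 0.05 at each of the 8 stages, with differences from 0.31 at 22ss to 0.69 at 15ss, and calls at 4ss (0.62) and 15ss. The call at 4ss was lost when the AC embryos of replicate 2 (0.56) or 3 (0.56) or the RC embryos of replicate 1 (0.49) were left out, and with depth factors of the element table (0.48) or quantile normalization (0.51), the last of which also ended that at 15ss (0.55). With each stage fitted alone the difference at 4ss was 0.62 but its adjusted p was 0.0599 by limma.

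The family labelled SVA, rnd-1_family-112, combined a species difference with a fall over RC development. In RC its normalized counts were 821 and 583 at 4ss, 296, 363 and 388 at 30ss, and 372, 303 and 280 at 37ss. In AC they were 424, 312 and 292 at 4ss and 285, 270 and 253 at 30ss. The RC embryos of 4ss were thus the highest of all, and RC lay above AC at every shared stage without overlap. The mean difference was 0.57 on the log2 scale (SE 0.06, adjusted p 7.673e-10), with calls at 4ss (1.03), 15ss (0.65) and 18ss (0.86, all by limma). The call of 15ss ended when AC replicate 1 (0.50) or RC replicate 2 (0.51) was omitted, with depth factors of the element table (0.57) and with quantile normalization (0.54), and that of 18ss was lost without AC replicate 2 (0.54), whose embryo had 161 against 319 and 311. From 4ss to 30ss the level fell in RC by 0.99 on the log2 scale (SE 0.20, adjusted p 0.000248 by limma), but by 0.63 with adjusted p 0.156 without RC replicate 1, which leaves 1 embryo at 4ss. The change in AC was -0.33 (adjusted p 0.148), and the difference of the changes was -0.67 (SE 0.26, adjusted p 0.162 by limma), so it was not shown to differ between the species.

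Of the other retroposons, rnd-1_family-313 had a median normalized count of 146 in AC (104 to 167) and of 194 in RC (145 to 246), with 23 of 26 RC embryos above every AC embryo. It was called at 10ss (0.68 on the log2 scale) and 26ss (0.66), the first lost without AC replicate 3 (0.52), with depth factors of the element table (0.53) or quantile normalization (0.49). The low-count family rnd-1_family-385, with medians of 38.0 and 53.7, was called at 15ss, where AC embryos had 21.8, 34.7 and 23.7 and RC embryos 67.4, 60.1 and 66.7 (1.27 on the log2 scale, SE 0.27, adjusted p 0.000482 by limma). Family rnd-1_family-343 was called at 26ss (0.64, adjusted p 0.00373), where AC embryos had 127, 153 and 132 and RC embryos 226, 182 and 240; the call was lost without RC replicate 3 (0.56) and with quantile normalization (0.57). At 15ss its order was the opposite, with 246, 218 and 259 in AC and 206, 201 and 169 in RC, a difference of -0.33 that did not pass (adjusted p 0.128).

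On the adjusted p with the deposited scaling, rnd-1_family-162 was the only retroposon with a lower mean in RC. Its normalized count had a median of 693 in AC (609 to 833) and of 635 in RC (576 to 836), and the mean difference was -0.11 on the log2 scale (SE 0.03, adjusted p 0.00205 by limma). At 4ss, RC embryos had 836 and 803 against 810, 659 and 660 in AC; at 30ss, RC embryos had 605, 603 and 576 against 692, 799 and 695. All RC embryos lay below all AC embryos at 5 of the 8 stages, and at none above. From 4ss to 30ss it differed by -0.46 in RC (adjusted p 0.000491) and by 0.04 in AC (adjusted p 0.749). The difference between those changes was -0.50 (SE 0.13, adjusted p 0.0273 by limma), past the p threshold but below the fold threshold. Over all elements the median of this difference was -0.10, and RC had 2 embryos at 4ss. The F-test over RC stages of rnd-1_family-162 was not passed without RC replicate 2. The L1-dep family rnd-6_family-3780, named for dependence on LINE-1, had medians of 51.9 and 61.3 and a mean difference of 0.28 (SE 0.10, adjusted p 0.0174), which was 0.19 when depth factors came from the element table. Families rnd-1_family-376 and rnd-1_family-418 had mean differences of 0.02 and -0.03 with adjusted p of 0.724 and 0.763, and rnd-1_family-462 and rnd-1_family-169 of 0.15 and 0.16 with adjusted p of 0.00882 and 0.0222, lost under element scaling or quantile normalization.

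**Figure D4:**
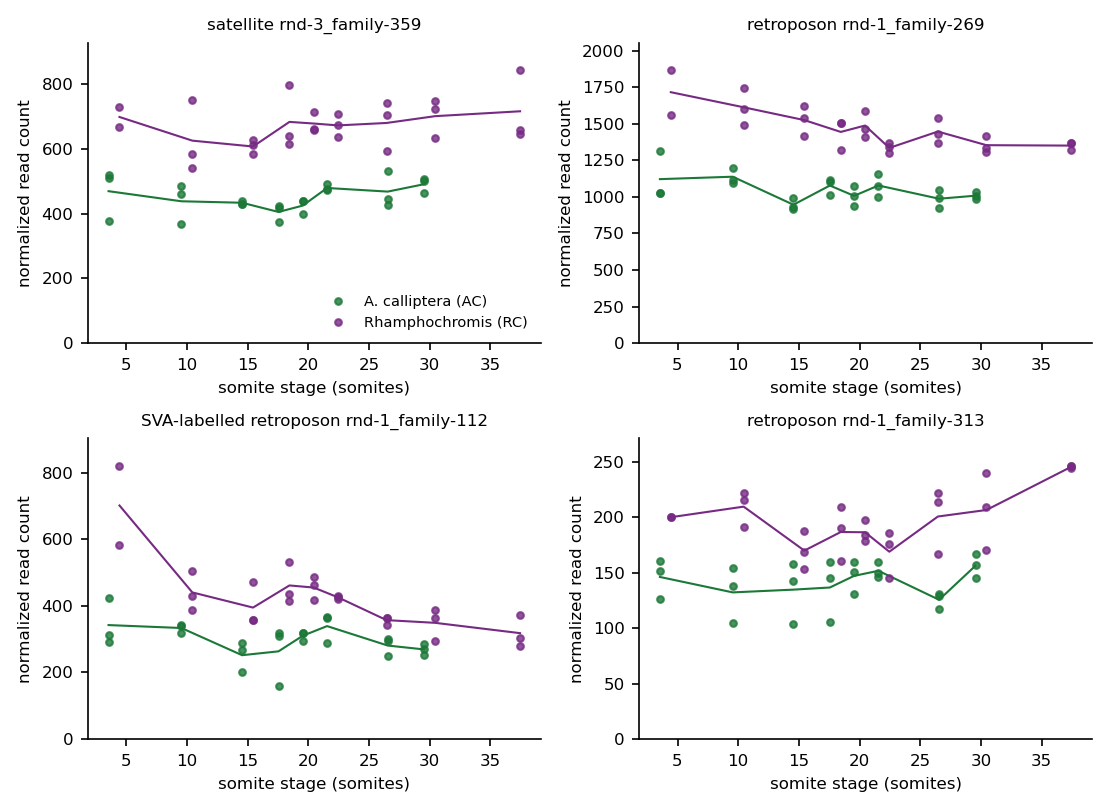
Normalized read count (y axes, each from 0) by somite stage (x axes) of the satellite rnd-3_family-359 and the retroposons rnd-1_family-269, rnd-1_family-112 and rnd-1_family-313; points are embryos (AC and RC set apart sideways), lines join group means, AC green and RC purple. RC embryos of the satellite start at 541 where AC ends at 531, and RC values of rnd-1_family-112 go from 821 and 583 at 4ss to between 280 and 372 at 37ss.

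Among satellites, rnd-3_family-359 was the only member of all 32 in which each of the 26 RC embryos was above each of the 24 AC embryos, which held for 2.33% of all elements tested. AC embryos ran from 369 to 531 with a median of 443 normalized counts, and RC embryos from 541 to 845 with a median of 661. At 18ss, AC embryos had 424, 376 and 417 and RC embryos 797, 614 and 640. The mean difference was 0.57 on the log2 scale (SE 0.04, adjusted p 1.54e-14 by limma), which is under the fold threshold. The adjusted p was under 0.05 at all 8 stages. Fold calls were made at 4ss (0.59), 18ss (0.75) and 20ss (0.67), because the differences, from 0.48 to 0.75, lay on both sides of the threshold. The call of 4ss lay at the threshold and was lost under 9 alternatives, among them the omission of AC replicate 3 (0.44) or RC replicate 1 (0.52), edgeR (0.57) and DESeq2 (0.57). That of 20ss was lost with depth factors of the element table (0.55) and quantile normalization (0.53). Variation over stages did not pass the test in either species (adjusted p 0.406 in AC and 0.733 in RC, limma F-tests).

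None of the 6 satellites was called in the mean by limma, and none of the other 5 was called at a stage. The most counted member of all, rnd-1_family-8, had medians of 2025 in AC (1708 to 3000) and 1993 in RC (1672 to 2336), with a mean difference of -0.04 on the log2 scale (SE 0.04, adjusted p 0.409). The next, rnd-1_family-106, had medians of 1247 and 1283 and a mean difference of 0.04 (SE 0.03, adjusted p 0.337), whose sign turned with depth factors of the element table (-0.05). For rnd-1_family-248 the mean difference was 0.23 (SE 0.06, adjusted p 0.000746 by limma), positive at all 8 stages but under the fold threshold at each, with 0.09 under quantile normalization. Families rnd-1_family-200 and rnd-6_family-8987 had mean differences of 0.05 (adjusted p 0.382) and -0.05 (adjusted p 0.807). The stage differences of rnd-6_family-8987 had both signs, from 1.09 at 4ss to -0.93 at 26ss (adjusted p 0.108 and 0.17 by limma), at group means between 6.41 and 27.3 normalized counts.

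No SINE was called between the species at any stage by limma, edgeR or DESeq2. Of all elements, 35.3% were called at 1 or more stages by limma. Per stage, edgeR called 184 to 275 and DESeq2 197 to 280 of the 1503 elements. Of the 12 SINEs, 9 had an unadjusted p under 0.05 at 1 or more stages by limma, a count that was not made for all elements. On the adjusted p without the fold threshold 6 passed (background 58.0%), 3 higher and 3 lower in RC. The 12 families had a median mean difference of 0.04 on the log2 scale, from -0.19 to 0.30, against 0.06 over all elements and 0.07 over the 88 families of L2 LINEs tested, the LINE group whose tail the 5S-Deu-L2 name refers to. Of these L2 families 18.2% were called in the mean. On the adjusted p alone 4 SINEs were higher and 2 lower in RC in the mean, beside 40.1% and 21.4% of all elements. With depth factors of the element table alone 2 were higher and 3 lower, beside 454 and 500 of the 1503 elements. With quantile normalization 2 were higher and 6 lower, beside 415 and 575. The most counted SINE, rnd-6_family-1036, had a median normalized count of 1497 in AC (1215 to 1808) and of 1686 in RC (1428 to 1801). At 10ss, AC embryos had 1362, 1305 and 1303 and RC embryos 1628, 1516 and 1702, without overlap. The mean difference was 0.16 (SE 0.03, adjusted p 1.852e-06 by limma), or 1.12-fold higher, above 0 at all 8 stages, and 0.07 with depth factors of the element table. The second, rnd-2_family-14, had medians of 1171 and 1208 and a mean difference of 0.06 (SE 0.03, adjusted p 0.118), of opposite sign with depth factors of the element table (-0.03).

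The SINE with the clearest lower level in RC was rnd-1_family-14. AC embryos had a median of 896 normalized counts (710 to 1011) and RC embryos of 771 (669 to 1016), and at 6 of 8 stages all RC embryos lay below all AC embryos. At 18ss, AC embryos had 856, 960 and 1011 and RC embryos 669, 770 and 737, and at 4ss they overlapped, with 946, 929 and 908 against 1016 and 885. Its mean difference was -0.19 (SE 0.03, adjusted p 1.596e-06 by limma), or 0.879 of the AC level. For rnd-1_family-102 it was -0.15 (SE 0.05, adjusted p 0.00627). In the other direction, rnd-6_family-4878 had medians of 567 and 689 and a difference of 0.27 (SE 0.06, adjusted p 0.000391), with 13 RC embryos above and 1 below every AC embryo. The families rnd-1_family-21 and rnd-6_family-2469 differed by 0.12 and 0.11, values whose sign turned with quantile normalization (-0.03 and -0.04). The MIR family rnd-1_family-99 did not pass the test of the mean (0.01, SE 0.04, adjusted p 0.834), nor did rnd-1_family-26 (-0.0046, SE 0.06) and rnd-1_family-22 (-0.05, SE 0.06). The low-count families rnd-5_family-5045 and rnd-1_family-59, with medians of 22.9 and 16.9 in AC and 23.9 and 25.3 in RC, had wide errors (-0.03, SE 0.15, and 0.30, SE 0.15).

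The uncertain SINE? class held 2 families of very unequal depth. For rnd-6_family-83 the median normalized count was 735 in AC (645 to 957) and 810 in RC (682 to 1011), a mean difference of 0.14 (SE 0.04, adjusted p 0.0017 by limma) that was 0.05 with depth factors of the element table. For rnd-5_family-8118 the medians were 10.3 and 10.1, and an AC embryo of 26ss had 0 reads, which at its depth allows up to 2.93 normalized counts, the value of 3 reads. Its difference of -0.10 (SE 0.23) could not be resolved at this depth.

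Over somitogenesis in AC, 7 of 32 members varied with stage by the limma F-test (21.9%, background 35.7%). They were the SINEs rnd-1_family-99, rnd-6_family-1036 and rnd-6_family-2469, the satellites rnd-1_family-8 and rnd-6_family-8987 and the retroposons rnd-1_family-343 and rnd-1_family-376. The MIR family rnd-1_family-99 had 160, 125 and 146 normalized counts at 4ss, 145, 132 and 124 at 15ss, and 205, 206 and 219 at 18ss (adjusted p 0.000264). From 18ss on, 14 of 15 AC embryos lay above 160, the highest value up to 15ss, and the other had 158 at 30ss. In RC the same stages had 181 and 162, then 178, 137 and 130, then 156, 157 and 159, and the F-test did not pass (adjusted p 0.326). The SINE rnd-6_family-1036 went from 1381, 1215 and 1434 at 4ss to 1604, 1808 and 1564 at 30ss in AC (adjusted p 0.00108), a change of 0.30 on the log2 scale (adjusted p 0.000859). In RC it went from 1595 and 1475 to 1699, 1747 and 1783 (F-test adjusted p 0.285). These are the 2 members that varied in AC under all 15 alternatives tried, leaving out each replicate included.

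The satellite rnd-1_family-8 had its highest AC group mean at 15ss, with 2029, 2484 and 3000 in its embryos, and its lowest at 30ss, with 1810, 1728 and 1708 (F-test adjusted p 0.00109, and 0.0618 without AC replicate 2). In RC, 4ss had 1672 and 1945 and 30ss 1887, 1982 and 2031 (adjusted p 0.64). The low-count satellite rnd-6_family-8987 rose in AC from 12.9, 3.89 and 2.44 at 4ss to 19.7, 36.3 and 25.9 at 30ss, 2.16 on the log2 scale (SE 0.45, adjusted p 0.000192 by limma), but its F-test was not passed without AC replicate 2 or AC replicate 3. It and the SINE rnd-5_family-5045 were the 2 members called from 4ss to 30ss in AC (background 19.2%), both of them higher at 30ss (background 9.65%). The latter had 21.2, 10.4 and 9.74 at 4ss and 30.5, 23.3 and 30.7 at 30ss (1.05, SE 0.43, adjusted p 0.0491), a call that was lost in 12 of the alternatives, edgeR (0.98, adjusted p 0.0958) and DESeq2 (0.99, adjusted p 0.0774) among them. Leaving out AC replicate 3 gave 0.80 with adjusted p 0.322, and leaving out AC replicate 2 gave 1.03 with adjusted p 0.0845. Omitting RC replicate 1 (adjusted p 0.0732) or RC replicate 3 (adjusted p 0.0681) ended it too. Retroposon rnd-1_family-343 had its lowest AC values at 26ss, given above, and its F-test (adjusted p 0.00407) was not passed without AC replicate 1.

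**Figure D5:**
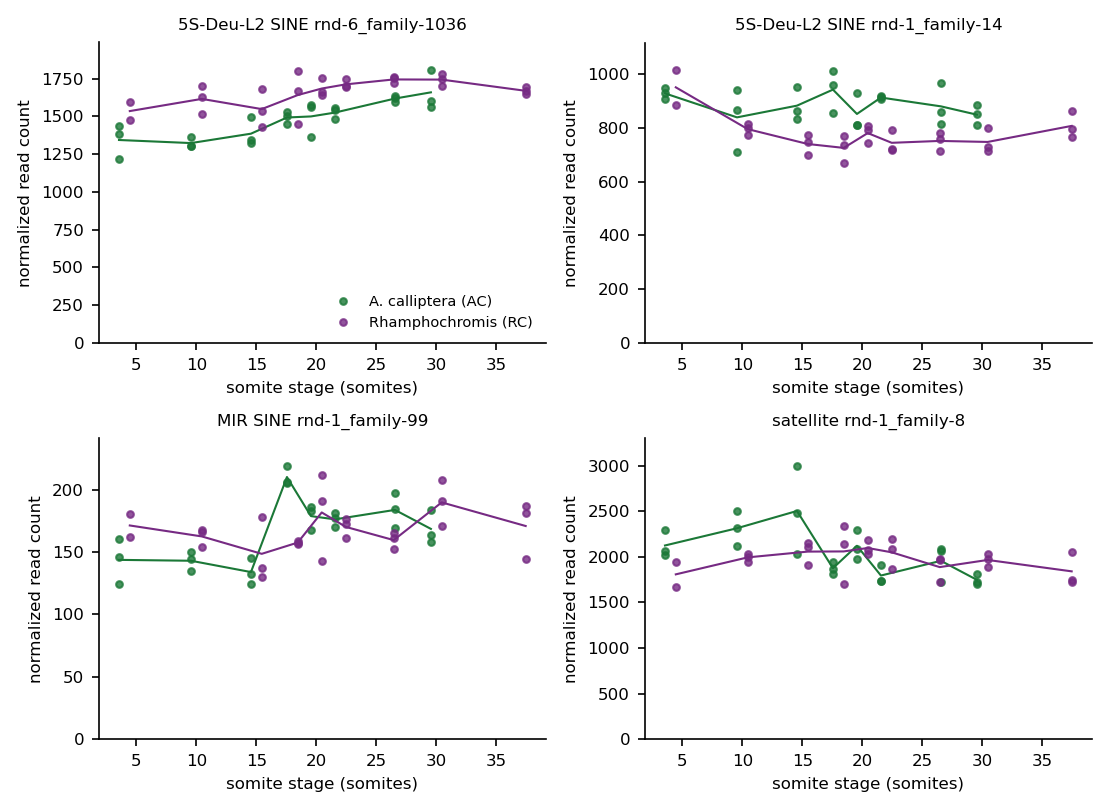
Normalized read count (y axes, each from 0) by somite stage (x axes) of the SINEs rnd-6_family-1036, rnd-1_family-14 and rnd-1_family-99 and the satellite rnd-1_family-8; points are embryos (AC and RC set apart sideways), lines join group means, AC green and RC purple. In AC, rnd-1_family-99 lies between 124 and 145 at 15ss and between 205 and 219 at 18ss, and rnd-1_family-8 reaches 3000 at 15ss.

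In RC, 6 of 32 members varied over the 9 stages (18.8%, background 25.6%), namely the retroposons rnd-1_family-112, rnd-1_family-269 and rnd-1_family-162, the SINEs rnd-1_family-21 and rnd-1_family-14 and the satellite rnd-1_family-106. The count was 0 without RC replicate 1, which leaves 1 embryo at 4ss, and 2 without RC replicate 2 or RC replicate 3. At 4ss rnd-1_family-269 had 1869 and 1563 and at 37ss 1318, 1367 and 1368 (F-test adjusted p 0.0143). The SINE rnd-1_family-21 had 1070 and 1067 at 4ss, 1179, 1283 and 1298 at 30ss and 1050, 1053 and 1141 at 37ss (adjusted p 0.0178). For rnd-1_family-106 the RC values were 1435 and 1544 at 4ss and 1124, 1163 and 1195 at 30ss (F-test adjusted p 0.0414). The 4ss embryos of rnd-1_family-14 given above were the highest of RC (F-test adjusted p 0.0412). With quantile normalization the F-tests of rnd-1_family-269, rnd-1_family-106 and rnd-1_family-14 were not passed. That of rnd-1_family-14 was also lost with depth factors of the element table. Quantile normalization instead added rnd-1_family-200, rnd-2_family-14, rnd-6_family-1036 and rnd-6_family-2469. Between 4ss and 30ss, 1 member was called in RC, rnd-1_family-112 (background 11.2%), which was lower at 30ss (background 8.45%).

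A species difference that varied with stage was called in no member by limma (background 2.33%), with 7 of 32 at an unadjusted p under 0.05 by limma, and 0 called by edgeR and 1 by DESeq2. The lowest adjusted p were 0.109 for the MIR family rnd-1_family-99, 0.127 for rnd-1_family-162, 0.132 for rnd-1_family-343 and 0.149 for rnd-1_family-8. No member was called for a difference between the species in its change from 4ss to 30ss (background 2.59%), with 4 at an unadjusted p under 0.05 by limma and 0 called by edgeR or DESeq2. None was called from 30ss to 37ss in RC (background 0.0%), with 2 at an unadjusted p under 0.05 by limma and 0 called by edgeR or DESeq2. The backgrounds given for these tests are those of the calls. Shares of all elements at the unadjusted p are not given here, so the unadjusted counts cannot be set against them. In whole embryos, fewer cells of a type and less RNA per cell cannot be told apart.

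The members had a lower median SD within groups than all elements tested, 0.18 on the log2 scale against 0.22. The sets were not matched for read count, so the part of depth in this was not tested. The steadiest were the SINEs rnd-1_family-21 (0.07), rnd-6_family-1036 (0.08) and rnd-6_family-2469 (0.09), and the widest were the families of low count rnd-5_family-8118 (0.79), rnd-6_family-8987 (0.55), rnd-5_family-5045 (0.53) and rnd-1_family-59 (0.52). The Helitron, at 0.41, came next, although between 199 and 1905 reads were counted on it per embryo.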

How the data were processed

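Single whole embryos of both species were sequenced as stranded, polyA-enriched paired-end libraries. Trim Galore was used by the authors for trimming and STAR for mapping, with the A. calliptera assembly fAstCal1.2 as the reference for AC and RC alike. They built repeat families with RepeatModeler and RepeatMasker, counted reads per family with TEcount, which shares reads with several map positions among families, and scaled them in DESeq2; the deposited signal values are these normalized counts. The strand setting of TEcount is not given in the sources used here. The study's methods exclude satellites, yet the table of elements held 6 families of that class, which were kept. Dividing by the value of 1 read gave whole reads for 100% of the values above 0 (tolerance 0.01). The 17 columns of group means in the table of genes, and the table of lncRNAs, were not used.

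Because normalized counts are no counts, log2(value + 1) was fitted in limma 3.58.1 (R 4.3.3) with a variance trend, on the 1503 of 1609 elements that reached 10 normalized counts in 2 or more embryos. Fold changes are on this scale, which understates changes of low families. A fit of the 16 group means of 47 embryos gave the species contrasts at 8 stages, their mean and the F-test over stages. A fit of the 17 group means of 50 embryos gave the stage tests within species. Adjustment was by Benjamini-Hochberg within each comparison over all elements, and calls needed an adjusted p under 0.05 and, except in F-tests, a change beyond 1.5-fold. The families were chosen, and the tests and lists written, with earlier results of these data known. The rule for named families took, in each class, the 2 of highest mean count and every member of a class of 3 or fewer; up to 6 in each direction called at 6 or more stages; up to 4 in each direction called from 4ss to 30ss in both species; the 4 of lowest adjusted p for a difference that varied with stage; and up to 3 called from 30ss to 37ss. Other families are named so that every member is accounted for, with their values seen. Lists of RNA polymerase III and silencing genes were not used here, since identifiers were not paired with names. Levels are not per length or per copy and are not compared between families. Each precision statement covers the spread of embryos; low families are limited by counting error. No pair of replicates agreed within sampling noise. The fits were tested on simulated reads with the same dispersion for all elements, without stage effects or differences between libraries beyond depth. That test does not cover the spread of replicates seen here. Alternatives were depth factors of the gene table or of the element table, quantile normalization, pseudocounts of 0.1 and 10, no filter, edgeR 4.0.16 and DESeq2 1.42.0 on the whole reads, each stage alone, a replicate block, no fold threshold, the omission of each replicate number of a species, and the mean without the pair of 27ss with 26ss.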

Additional observations from a re-analysis of the deposited data

How the results depend on the processing

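No called value changed sign under any alternative, which covers only differences past the fold threshold. The means of rnd-1_family-21 and rnd-6_family-2469 passed on the adjusted p alone. They turned from 0.12 and 0.11 to -0.03 and -0.04 with quantile normalization. Without the fold threshold, 58.0% of all elements passed at 1 or more stages and 61.5% in the mean. Of the 1503 elements, DESeq2 called 197 in place of 180 at 22ss, and 92 in place of 35 for a difference that varied with stage. For the change from 4ss to 30ss in AC, edgeR called 272 and DESeq2 278 in place of 289. Shares of all elements are not given beside the other member counts of this section, so shifts in those cannot be read as particular to the members. Counts of called members that moved by over 1.5 times were as follows. Without the fold threshold they were, for 4ss, 10ss, 18ss and 20ss, 7, 6, 8 and 6, and 5 each for 22ss, 26ss and 30ss, with 16 at 1 or more stages, 19 in the mean, and for the change from 4ss to 30ss 6 in AC, 8 in RC and 1 for the difference between the species. With depth factors of the element table alone they were 2 for 4ss, 1 each for 10ss and 20ss, and 11 for variation over stages in AC. With quantile normalization they were 2 each for 4ss and 15ss, 1 each for 10ss and 20ss, and 3 where the test was of unequal differences among stages. DESeq2 called 2 at 22ss and 1 for a difference that varied with stage. Each stage fitted alone gave 2 at 4ss, and the mean without the pair of 27ss and 26ss gave 2. The change from 4ss to 30ss in AC had 1 member in place of 2 with a pseudocount of 10, no filter, depth factors of the gene table or of the element table, quantile normalization, edgeR or DESeq2. The causes of these shifts were not tested, except that dropping a threshold admits smaller differences by construction.

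Leaving out 1 replicate number of a species at a time gave 2 to 5 calls for 4ss, 1 to 3 for 10ss, 2 to 4 for 20ss, 0 to 1 for 22ss (0 without AC replicate 3), 2 to 6 for 26ss (6 without AC replicate 2), 3 to 4 for 15ss, 2 to 4 for 18ss, 1 for 30ss, 6 to 9 for 1 or more stages, 1 to 4 in the mean (4 without RC replicate 3), 0 to 2 for a difference that varied with stage (2 without AC replicate 1), 3 to 6 for stages in AC (3 without AC replicate 2), 0 to 7 for stages in RC (0 without RC replicate 1), 1 to 2 for the change from 4ss to 30ss in AC, 0 to 1 in RC (0 without RC replicate 1) and 0 to 2 for its difference between the species (2 without AC replicate 1). Where RC replicate 1 or 3 was left out, 4ss of RC had 1 embryo, assumed to vary like the other groups.

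Replicate numbers did not pair the embryos: the correlations of 23 same-numbered pairs across species ran from -0.115 to 0.159, 2 were over 0.1, and 10 embryos correlated best with their own number. The replicate block gave 3 members in place of 4 at 4ss and 1 in place of 2 for the change from 4ss to 30ss in AC, and moved no other count. Families of low count had the widest spread within groups, and their differences are limited by depth.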
